A study of Populus trichocarpa with 9 samples.

Results

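The 4 genes described here are 2 transcription factor genes of the black cottonwood tree Populus trichocarpa and the paralog of each: the class B heat shock factor gene PtrHSFB3-1 (Potri.006G049200) with its paralog Potri.016G056500, and the MYB factor gene PtrMYB092 (Potri.001G118800) with its paralog Potri.003G114100. They are 4 of the 41335 gene models in the count table, taken by their identifiers, and 4 of 4 passed the filter on low counts that 27795 genes passed. PtrHSFB3-1 and PtrMYB092 were followed by the study because they were repressed by bending in these same samples, so their difference from unbent stems is given as a description with no test. The paralogs were taken for their relation to the named copies, at a time when earlier results of these data were known, and the question asked of them was whether their transcripts followed those copies.

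RNA was sequenced from stem differentiating xylem, the developing wood just inside the cambium, in 9 libraries: 3 from unbent stems (day 0), 3 from stems bent for 3 days and 3 from stems bent for 7 days. All were greenhouse trees of P. trichocarpa, genotype Nisqually-1, 6 months old and with no transgene named in the labels. In the bent groups the stems were mechanically bent to 90°. The tissue was scraped from the upper side of the bent stem or from the matching place on an unbent one. No unbent stems of day 3 or day 7 are among the libraries, so bending and elapsed time cannot be told apart. The labels number the replicates but do not say whether each came from its own tree, and p-values measure the spread between these libraries.

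Bent stems of broad-leaved trees form tension wood on their upper side, a wood rich in cellulose and poor in lignin. Lignin is made from monolignols, phenolic alcohols built from phenylalanine by a chain of enzymes that begins with phenylalanine ammonia-lyase (PAL), and MYB factors are known as activators and as repressors of the genes of this chain. Heat shock factors bind DNA at heat shock elements, and those of class B, which are particular to plants, lack the activation motif of class A and often act as repressors or as partners of other factors. Poplars went through a whole-genome duplication in the past, and many of their genes are still present as pairs of similar copies.

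The primers with which the study amplified the coding sequences for its overexpression trees are shown, as designed sequences that belong to the named copies. Whether they differ from the paralogs was not tested. Capitals are bases of the coding sequence, beginning with the start codon in the forward primer and with the complement of the stop codon in the reverse primer, and lower case letters are an added end with a cutting site, for BamHI in the forward and for SacI in the reverse primer.
PtrHSFB3-1 forward: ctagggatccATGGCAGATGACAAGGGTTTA
PtrHSFB3-1 reverse: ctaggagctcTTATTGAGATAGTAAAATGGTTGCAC
PtrMYB092 forward: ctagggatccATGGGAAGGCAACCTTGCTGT
PtrMYB092 reverse: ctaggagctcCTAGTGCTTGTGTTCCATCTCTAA
Sequences of the paralogs were not analysed here. How reads that fit both copies of a pair were counted is not given in the sources used here, so counts of close copies could be shared between them, and the part of this in the values was not tested.

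Libraries held 20888144 to 29539805 counts, and 1 count was worth 0.0321 to 0.0482 CPM (counts scaled to a common library size, with TMM factors). The lowest count of any of the 4 genes in any library was 72. The secondary wall cellulose synthases that mark differentiating xylem, PtrCesA4, PtrCesA7, PtrCesA8, PtrCesA17 and PtrCesA18, lay at or above the 97.7th percentile of tested genes in every library. Their summed level was 6249 to 7316 CPM in unbent libraries, 3295 to 8524 CPM at 3 days and 8001 to 12794 CPM at 7 days, and TMM factors were 1.04 to 1.11 in unbent libraries, 0.973 to 1.11 at 3 days and 0.838 to 0.977 at 7 days. The part of these shifts in the results below was not tested, and in RNA from a whole tissue fewer cells of a type cannot be told apart from less RNA per cell. CPM is not scaled by gene length, so levels are compared between libraries and not between genes.

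PtrHSFB3-1 was at 7.66, 8.01 and 3.83 CPM in the 3 libraries of 3-day bent stems and at 7.76, 6.22 and 6.39 CPM in those of 7-day bent stems, against 23.9, 17.9 and 17.0 CPM in unbent stems. Every bent library lay below every unbent library, with 3-day replicate 3 lowest of all. Such a separation in the lower direction held for 3.79% of tested genes. As the gene was chosen for its fall in these libraries, its separation is only a description. The mean was 6.50 ± 2.32 CPM at 3 days and 6.79 ± 0.844 CPM at 7 days, against 19.6 ± 3.75 CPM in unbent stems (SD, n = 3 each). On the log2 scale this was -1.59 (SE 0.28) at 3 days and -1.53 (SE 0.28) at 7 days. Leaving out each library in turn gave -1.77 to -1.30 at 3 days and -1.63 to -1.38 at 7 days.

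The HSFB3 paralog Potri.016G056500 was lower in bent than in unbent xylem, as its named copy was, and its fall passed the test at 7 days and for both bending times together. It was at 3.30, 5.12 and 4.45 CPM in 3-day libraries and at 7.60, 4.20 and 4.49 CPM in 7-day libraries, against 14.6, 9.35 and 11.4 CPM in unbent libraries. All 6 bent libraries lay below the 3 unbent libraries, which held for 3.79% of tested genes. The bent library closest to the unbent ones was 7-day replicate 1. The mean was 4.29 ± 0.917 CPM at 3 days and 5.43 ± 1.89 CPM at 7 days, against 11.8 ± 2.63 CPM in unbent stems (SD, n = 3 each).

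At 3 days the HSFB3 paralog differed from unbent stems by -1.46 on the log2 scale (SE 0.29, 95% interval -2.11 to -0.80), a 2.74-fold lower level. The 3-day and unbent libraries did not overlap, which held for 15.1% of tested genes, and for 8.04% in the lower direction. The edgeR quasi-likelihood test gave a Benjamini-Hochberg adjusted p = 0.146 over all tested genes, which did not pass. The share of genes called at 3 days was 0%, as no gene had an adjusted p under 0.05, while 3265 genes (11.7%) had an unadjusted p under 0.05. Of all tested genes, 1.22% had a lower log2 fold change than this paralog. DESeq2 called it (log2 fold change -1.44, adjusted p = 0.00116), as did edgeR's exact test on the compared groups (log2 fold change -1.44, adjusted p = 0.00252), and the adjusted p ranged from 0.00116 to 0.373 over 18 alternatives. Both methods called more genes at 3 days than the quasi-likelihood test did: 881 of 29966 with DESeq2 and 454 of 27259 with the exact test.

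At 7 days the HSFB3 paralog fell by 1.12 on the log2 scale against unbent stems (SE 0.29, 95% interval -1.76 to -0.47), a 2.17-fold lower level with an edgeR quasi-likelihood adjusted p = 0.0451. Calls made up 8.75% of tested genes in this comparison (2.68% lower and 6.07% higher), and non-overlapping groups 31.0% (14.7% lower). A share of 5.28% of tested genes had a lower log2 fold change. The call was close to the threshold: it was lost in 8 of 18 alternatives, with the adjusted p from 0.00667 to 0.181 and the log2 fold change from -1.44 to -0.96. The libraries without which it was lost were unbent replicate 1 (edgeR adjusted p = 0.138), unbent replicate 3 (0.0910), 3-day replicates 2 and 3 (0.0508 each), 7-day replicate 2 (0.0934) and 7-day replicate 3 (0.181). It was also lost with the replicate number as a block (edgeR adjusted p = 0.0669) and in a fit of only the compared groups (edgeR adjusted p = 0.0538).

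For the mean of both bending times the HSFB3 paralog fell by 1.29 on the log2 scale (SE 0.24, 95% interval -1.82 to -0.75), with an edgeR quasi-likelihood adjusted p = 0.0268. Calls were 4.07% of tested genes in this comparison (1.38% lower and 2.69% higher) and non-overlapping groups 8.21% (3.79% lower). The value for PtrHSFB3-1 in the same comparison was -1.56 (SE 0.23). The paralog's call was kept in 14 of 17 alternatives. It was lost without unbent replicate 1 (edgeR adjusted p = 0.114), unbent replicate 3 (0.0918) or 7-day replicate 3 (0.0743).

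**Figure D1:**
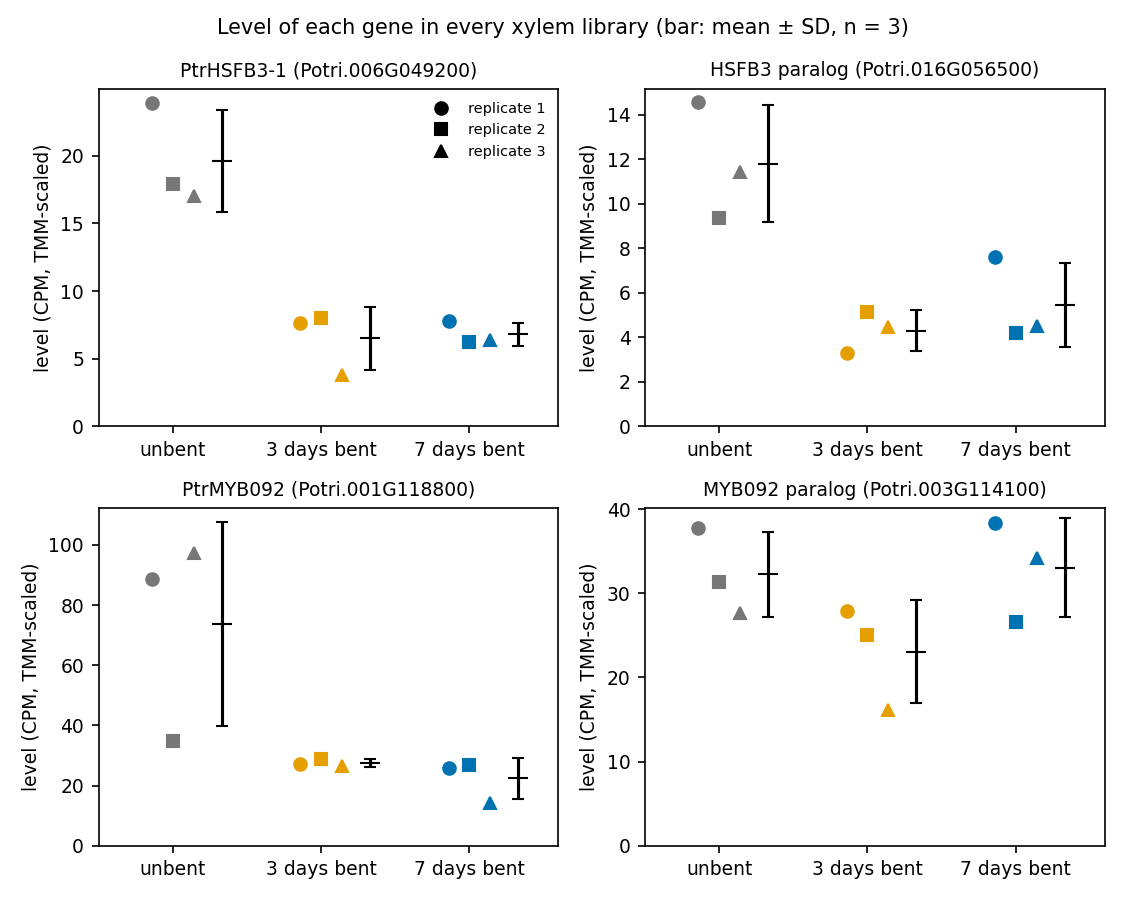
Level of each of the 4 genes in CPM, scaled by TMM factors, in the 9 xylem libraries. Symbols are libraries by replicate number and bars are the mean ± SD (n = 3). PtrHSFB3-1, its paralog and PtrMYB092 have all 6 bent libraries below the unbent ones, as 3.79% of tested genes do, whereas the MYB092 paralog overlaps at both times.

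PtrMYB092 was at 27.3, 28.8 and 26.4 CPM in 3-day libraries and at 25.7, 27.0 and 14.3 CPM in 7-day libraries, against 88.7, 34.8 and 97.4 CPM in unbent libraries. Bent and unbent libraries did not overlap, but unbent replicate 2 lay nearer to the bent libraries than to the other unbent ones. A separation in the lower direction held for 3.79% of tested genes, and PtrMYB092 was chosen for its fall in these libraries. The coefficient of variation between libraries was 4.35% at 3 days and 31.1% at 7 days, against 46.0% in unbent stems. The mean was 27.5 ± 1.19 CPM at 3 days and 22.3 ± 6.96 CPM at 7 days, against 73.6 ± 33.9 CPM in unbent stems (SD, n = 3 each). The log2 fold change was -1.42 (SE 0.37) at 3 days and -1.72 (SE 0.37) at 7 days, and leaving out each library in turn gave -1.72 to -1.13 at 3 days and -2.06 to -1.47 at 7 days. Both lowest values were without unbent replicate 2 and both highest without unbent replicate 3.

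The MYB092 paralog Potri.003G114100 did not pass the test in any comparison, and its bent and unbent libraries overlapped at both times. Both held for most tested genes. Calls were 0% at 3 days and for 7 against 3 days, 8.75% at 7 days and 4.07% for both times. Groups did not overlap for 15.1% at 3 days and 31.0% at 7 days. It was at 27.9, 25.1 and 16.1 CPM in 3-day libraries and at 38.3, 26.6 and 34.2 CPM in 7-day libraries, against 37.7, 31.3 and 27.7 CPM in unbent libraries. The lowest value was that of 3-day replicate 3 and the highest that of 7-day replicate 1. Means were 23.1 ± 6.15 CPM at 3 days and 33.0 ± 5.92 CPM at 7 days, against 32.2 ± 5.07 CPM in unbent stems (SD, n = 3 each).

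Against unbent stems, the log2 fold change of the MYB092 paralog at 3 days was -0.48 (SE 0.23, 95% interval -0.99 to 0.03, edgeR adjusted p = 0.452), and 11.95% of tested genes had a lower one. At 7 days it was 0.04 (SE 0.23, 95% interval -0.47 to 0.54, edgeR adjusted p = 0.936). As a fold, that interval runs from 0.721 to 1.46, so a level below 0.721 of the unbent one lies outside it. When libraries were scaled by their totals alone, the 7-day value was -0.24, while the median of all genes moved to -0.33, against -0.06 with TMM factors. For the mean of both bending times the value was -0.22 (95% interval -0.66 to 0.21, edgeR adjusted p = 0.577), beside -1.57 (SE 0.30) for PtrMYB092. None of the alternatives called the MYB092 paralog in any comparison, and its lowest adjusted p among them was 0.161, for 7 against 3 days.

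**Figure D2:**
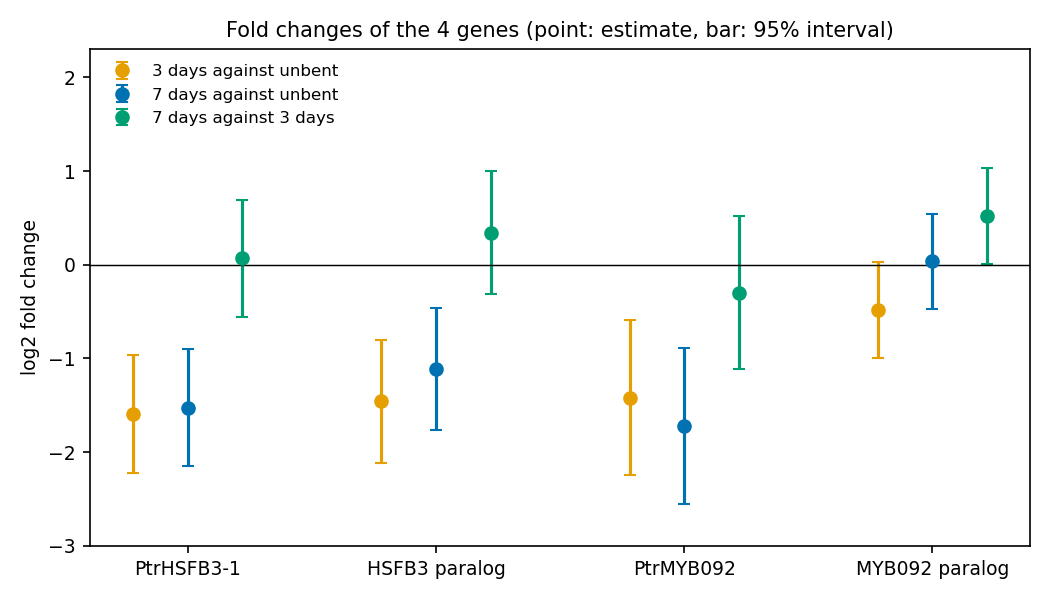
Log2 fold changes of the 4 genes at 3 days against unbent, at 7 days against unbent and at 7 against 3 days, with 95% intervals of the edgeR fit. The HSFB3 paralog lies at -1.46 and -1.12 against unbent stems, near PtrHSFB3-1 at -1.59 and -1.53, whereas the MYB092 paralog lies at -0.48 and 0.04, beside PtrMYB092 at -1.42 and -1.72. The named copies against unbent stems are a description, since they were chosen on that difference.

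The contrast of 7 with 3 days was not itself named in the choice of any of the 4 genes, and the test was made for all 4. PtrHSFB3-1 and PtrMYB092 were, however, chosen for a fall at both bending times. The libraries compared here thus entered their choice, and the absence of a call for these genes is only a description. PtrHSFB3-1 differed by 0.07 on the log2 scale (95% interval -0.56 to 0.69, edgeR adjusted p = 0.912) and its paralog by 0.34 (95% interval -0.31 to 1.00, edgeR adjusted p = 0.515). PtrMYB092 differed by -0.30 (95% interval -1.12 to 0.52, edgeR adjusted p = 0.657). The MYB092 paralog had the largest of the 4 values, 0.52 higher at 7 days (SE 0.23, 95% interval 0.01 to 1.03), with an edgeR adjusted p = 0.242. None of the 4 passed, and the 3-day and 7-day libraries overlapped for all 4. The share of genes called was 0%, at 20.2% with an unadjusted p under 0.05, and groups did not overlap for 25.7% of tested genes. The sign for PtrHSFB3-1 turned without 3-day replicate 3 (-0.24), the library with its lowest level, without 7-day replicate 1 (-0.04) and with library totals (-0.15).

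Within a library, the ratio of paralog to named copy does not depend on scaling between libraries, and its change shows whether the copies kept their proportion. For the HSFB3 pair, the ratio of counts was 0.431, 0.639 and 1.16 at 3 days and 0.979, 0.674 and 0.703 at 7 days, against 0.610, 0.522 and 0.671 in unbent stems. The 3-day ratios spread on either side of all the unbent ones, with 3-day replicate 3 the only library above 1. The mean log2 ratio was -0.55 ± 0.72 at 3 days and -0.37 ± 0.29 at 7 days, against -0.74 ± 0.18 in unbent stems (SD, n = 3 each), a difference of 0.19 at 3 days and 0.37 at 7 days. All 7-day ratios lay above the unbent ones, but by a narrow gap (0.674 at 7 days and 0.671 in unbent stems). The share of other gene pairs whose ratios separate in this way was not counted. As PtrHSFB3-1 was chosen for its fall in these libraries, the ratios against unbent stems are only a description. Summed over both copies, the pair was at 10.8 ± 2.43 CPM at 3 days and 12.2 ± 2.73 CPM at 7 days, against 31.4 ± 6.17 CPM in unbent stems.

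For the MYB092 pair the ratio of paralog to named copy was 1.02, 0.872 and 0.611 at 3 days and 1.49, 0.987 and 2.39 at 7 days, against 0.425, 0.900 and 0.284 in unbent stems. All 7-day ratios were above all unbent ratios, the nearest being 0.987 at 7 days and 0.900 in unbent replicate 2, whereas 3-day and unbent ratios overlapped. Here too the share of other gene pairs that separate was not counted. The mean log2 ratio was -0.29 ± 0.38 at 3 days and 0.60 ± 0.64 at 7 days, against -1.07 ± 0.84 in unbent stems (SD, n = 3 each). The difference against unbent stems was 0.78 at 3 days and 1.67 at 7 days, given with no test because PtrMYB092 was chosen on its fall in these libraries. Between 7 and 3 days the log2 ratio differed by 0.90 (two-sided exact permutation test, p = 0.2), and that of the HSFB3 pair by 0.18 (p = 0.8 in the same exact test); the smallest p that 3 against 3 libraries allow is 0.1. These tests were unpaired, and their libraries are among those on which the named copies were chosen, so their p-values are only a description. By replicate number, the log2 ratio of the MYB092 pair was 0.57, -0.02 and 1.25 at 7 days, against 0.03, -0.20 and -0.71 at 3 days, higher at 7 days in 3 of 3 same-numbered pairs. That of the HSFB3 pair was -0.03, -0.57 and -0.51 at 7 days, against -1.21, -0.65 and 0.22 at 3 days, higher at 7 days in 2 of 3. The labels do not say that replicate numbers mark pairs, so these counts by number are a description with no test. The summed level of the MYB092 pair was 50.5 ± 6.96 CPM at 3 days and 55.4 ± 7.88 CPM at 7 days, against 106 ± 34.4 CPM in unbent stems.

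**Figure D3:**
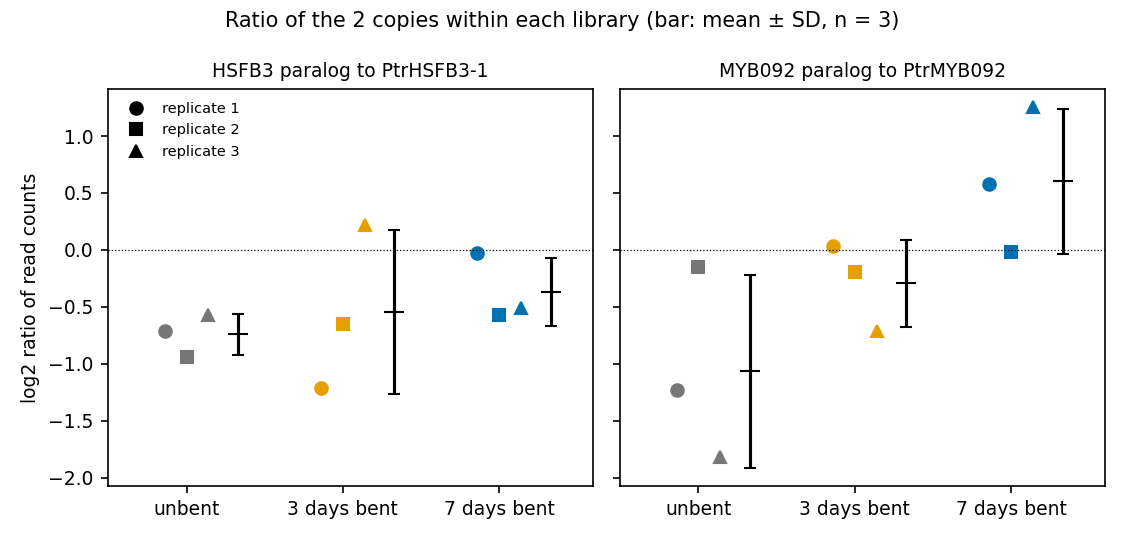
Log2 ratio of the counts of the paralog to those of the named copy in each library, for the HSFB3 pair and the MYB092 pair. Symbols are libraries by replicate number and bars are the mean ± SD (n = 3). The HSFB3 pair has means of -0.74 (unbent), -0.55 (3 days) and -0.37 (7 days), and the MYB092 pair -1.07, -0.29 and 0.60.

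How alike the profiles were over the 9 libraries was described by Pearson's r of log2 CPM, among 27794 other tested genes. The points share their groups, library depth and scaling, so r holds the difference between groups as well as the spread within them. The HSFB3 paralog had r = 0.87 with PtrHSFB3-1 and 0.817% of genes had a higher one, with r from 0.79 to 0.93 when each library was left out in turn. The MYB092 paralog had r = 0.14 with PtrMYB092, 44.8% of genes had a higher one, and r ranged from -0.12 (without unbent replicate 1) to 0.34 (without 7-day replicate 3). PtrHSFB3-1 and PtrMYB092 had r = 0.78 with each other, and the HSFB3 paralog had r = 0.81 with PtrMYB092. Both named copies were chosen for being lower in bent libraries, and r over the 9 libraries holds that difference, so every r that involves one of them is only a description. The single gene most like PtrHSFB3-1 was Potri.016G047300 (r = 0.99) and that most like PtrMYB092 was Potri.012G002200 (r = 0.99), neither of which has a name in the sources used here.

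Among the wood genes named by the study, a different one was closest to each of the 4. PtrMYB092 was closest to PtrPAL3 (r = 0.97), which encodes a phenylalanine ammonia-lyase, the entry enzyme of monolignol synthesis, and only 5 of all other genes were closer. PtrPAL3 was at 173, 152 and 235 CPM at 3 days and at 172, 127 and 79.0 CPM at 7 days, against 572, 246 and 677 CPM in unbent stems, so its unbent replicate 2 was also the lowest of the unbent libraries and its 7-day replicate 3 the lowest of all. PtrPAL3 is itself one of the genes that the study picked as repressed in these samples.

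PtrHSFB3-1 was closest to PtrCslA2 (r = 0.85), a gene of the cellulose synthase-like A family, whose members make mannans. Of all other tested genes, 1.03% had a higher r with PtrHSFB3-1. The HSFB3 paralog was closest to Ptr4CL5 (r = 0.87), a 4-coumarate:CoA ligase gene, and 0.461% of genes had a higher r. This ligase gene is also among those that the study picked as repressed in these samples. The MYB092 paralog was closest to PtrC3H3 (r = 0.87), which encodes the hydroxylase of p-coumaroyl esters, and 0.450% of genes had a higher r. This hydroxylase gene is named by the study as a direct target of both named factors. PtrC3H3 was at 516, 741 and 314 CPM at 3 days and at 953, 535 and 908 CPM at 7 days, against 934, 711 and 918 CPM in unbent stems, with 3-day replicate 3 lowest and 7-day replicate 1 highest, the same libraries as in the MYB092 paralog.

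**Figure D4:**
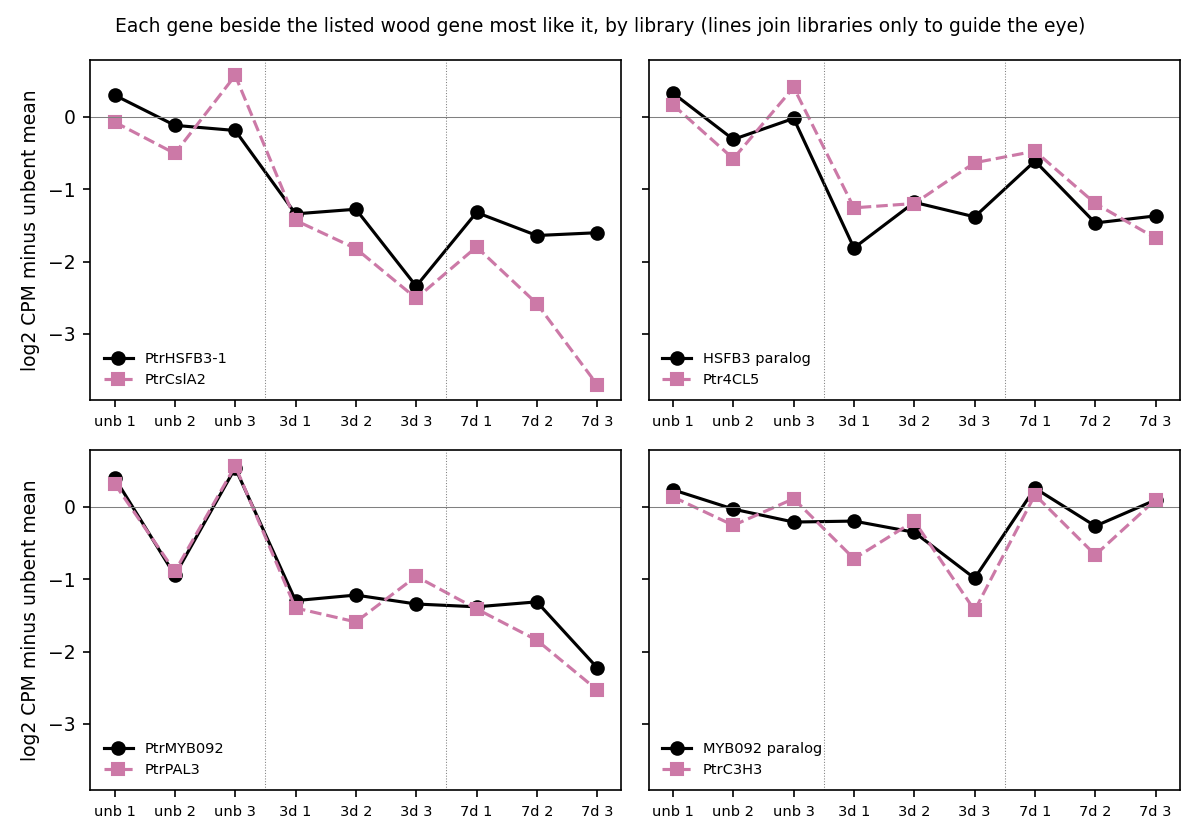
Log2 CPM minus the mean of the unbent libraries for each of the 4 genes (black) and the named wood gene with the highest Pearson's r with it (dashed), by library from unbent (unb) to 3 days (3d) and 7 days (7d). Lines join libraries only to guide the eye. PtrMYB092 and PtrPAL3 (r = 0.97) share the low value of unbent replicate 2, and the MYB092 paralog and PtrC3H3 (r = 0.87) share the low value of 3-day replicate 3.

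The pathway around the factors was counted over 22 monolignol genes, 5 secondary wall cellulose synthases and 2 hemicellulose genes. The study had reported PtrPAL1, PtrPAL3, PtrC4H2, Ptr4CL5 and PtrHCT1 as repressed in these same samples. It had reported PtrCesA7, PtrCesA8 and PtrCesA18 as activated in the same samples at 7 days. Calls of these genes below are therefore a description and no separate evidence. At 3 days 0 of the 22 monolignol genes were called by the edgeR quasi-likelihood test, as were 0% of all tested genes. A negative log2 fold change was found for 21 of 22, against 50.6% of all tested genes, and the median was -0.76, against -0.00. At 7 days 2 of 22 were lower and 0 higher, namely PtrPAL1 (log2 fold change -2.12, edgeR adjusted p = 0.0169) and PtrPAL3 (log2 fold change -1.98, edgeR adjusted p = 0.0215), where 2.68% of all tested genes were called lower and 6.07% higher. The median of the list was 0.15, against -0.06 over all tested genes. Negative values at 7 days were found for 8 of 22 monolignol genes, against 54.8% of all tested genes, beside -1.53 for PtrHSFB3-1, -1.72 for PtrMYB092, -1.12 for the HSFB3 paralog and 0.04 for the MYB092 paralog.

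The monolignol genes PtrPAL4, PtrC4H1, PtrC3H3, PtrCCoAOMT2 and PtrCCR2 are named by the study as direct targets of both factors. It reports the factors as their activators, from protoplasts, chromatin immunoprecipitation, and knockout and overexpression trees. Of these 5 genes, 0 were called in any comparison. Over all tested genes, calls were 0% at 3 days and for 7 against 3 days, 8.75% at 7 days and 4.07% for both times. The median log2 fold change of the 5 genes was -0.53 at 3 days, 0.21 at 7 days and 0.61 for 7 against 3 days. In the same order the values were -1.59, -1.53 and 0.07 for PtrHSFB3-1, and -1.42, -1.72 and -0.30 for PtrMYB092. They were -0.48, 0.04 and 0.52 for the MYB092 paralog. The medians of all 22 monolignol genes, these 5 among them, were -0.76, 0.15 and 0.80. The study also names others of the 22 as direct targets of a single factor. Whether the course is particular to targets was not tested, as genes that are not targets were not compared. At 7 days the 5 targets ranged from -0.44 to 0.70. Of the 5 cellulose synthases 0 were called at 3 days, when 0% of all tested genes were. At 7 days 1 of 5 was higher, where 6.07% of all tested genes were, namely PtrCesA18, a subunit of the secondary wall complex (log2 fold change 1.44, edgeR adjusted p = 0.0405). The study had already reported PtrCesA18 as activated in these same samples. PtrCslA2 fell by 2.57 on the log2 scale at 7 days (edgeR adjusted p = 0.0171), and PtrIRX10-1, a xylan synthesis gene, had a value of 1.11 that did not pass (edgeR adjusted p = 0.0617).

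**Figure D5:**
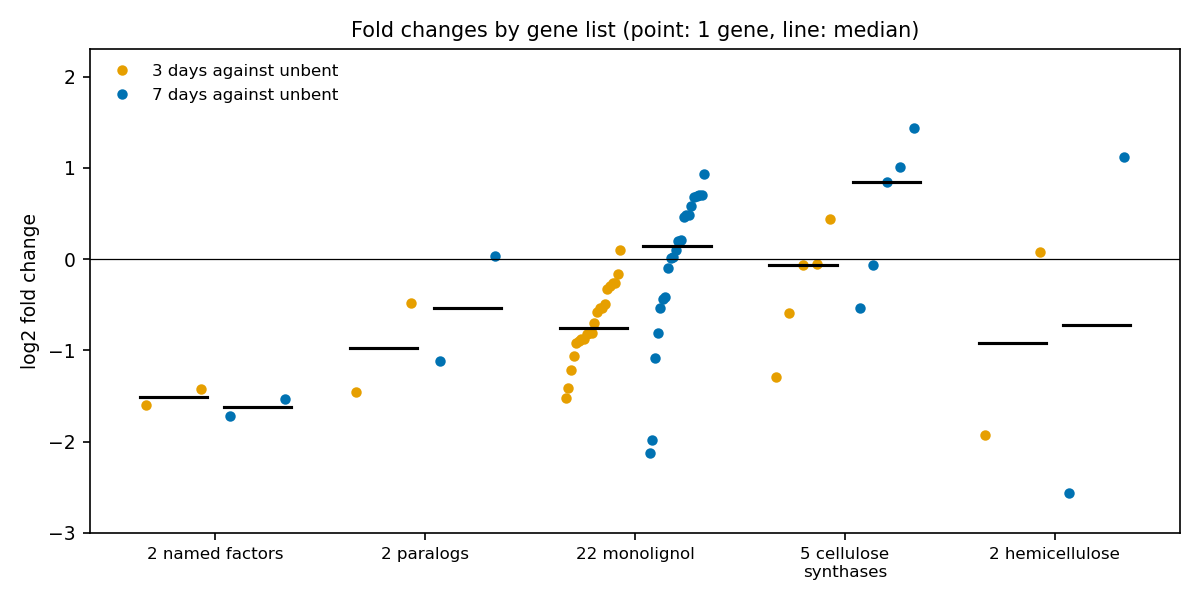
Log2 fold changes at 3 and at 7 days against unbent for the 2 named factors, their 2 paralogs and the genes of 3 pathway lists. Each point is 1 gene and each line is the median of its list. The monolignol median is -0.76 at 3 days and 0.15 at 7 days, and the named factors lie between -1.72 and -1.42.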

How the data were processed

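The authors deposited raw read counts for 41335 gene models of version 3, with TopHat (no version) in the submitters' processing notes. Which program counted the reads, whether it used strand and what it did with reads matching more than 1 gene are not known from these sources. Groups came from sample titles, and 0 columns were left unmatched. Genes were filtered by filterByExpr of edgeR 4.0.16 in R 4.3.3 (27795 kept), scaled by TMM factors and fitted with 3 groups over 9 libraries (quasi-likelihood test, two-sided, calls at p under 0.05 after Benjamini-Hochberg adjustment, biological coefficient of variation 30.9%). The SE is the log2 fold change over the square root of F, and log2 CPM used a prior count of 2. Alternatives were RLE factors, library totals, other filters, DESeq2 1.42.0, edgeR's exact test, fewer groups, thinned counts, a replicate block and each library left out. The script was tested on simulated data. Of the gene IDs, 0 matched the reference table of P.trichocarpa_v4.1, so lengths and coordinates were not used here.

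What a replicate number stands for is not labelled. Deviations from the group means correlated at 0.280, 0.244 and 0.174 between same-numbered 3-day and 7-day libraries, each over 0.1. Differently numbered 3-day and 7-day libraries correlated at -0.27 to 0.03. Differently numbered unbent and bent libraries reached 0.330 (unbent replicate 2 with 3-day replicate 3), so values of this size do not establish a pairing by number. Any pairing comes from the data alone, and the block fit of the 3-day and 7-day libraries was added after seeing the data. Same-numbered unbent and bent libraries did not all correlate (-0.34 to 0.39). Named genes are the 4 genes, any called gene and the most extreme ones of the pathway lists, and the genes most alike in profile. The genes and lists were chosen with earlier results of these data known.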

Additional observations from a re-analysis of the deposited data

How the results depend on the processing

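Against unbent stems PtrHSFB3-1 and PtrMYB092 kept their direction in every alternative run, and 0 alternatives called the MYB092 paralog. The HSFB3 paralog passed at 3 days with DESeq2 (-1.44) and edgeR's exact test (-1.44), and at 7 days missed the threshold with only the compared groups (-1.13, adjusted p = 0.0538) and with the replicate block (-1.13, adjusted p = 0.0669); left-out libraries gave -1.44 to -0.96 at 7 days, -1.60 to -1.25 at 3 days and -1.45 to -1.10 for both times. The replicate block changed no other call of the 4 genes, and it called 0, 1847, 0 and 846 genes at 3 days, 7 days, 7 against 3 days and for both times. Signs turned for PtrHSFB3-1 at 7 against 3 days (library totals -0.15, left-out libraries -0.24 to 0.25) and for the MYB092 paralog at 7 days (library totals -0.24, left-out libraries -0.0808 to 0.17), and r of the MYB092 pair ran from -0.12 to 0.34 over left-out libraries. The cause was not tested.

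Counts of called genes were 0 at 3 days (DESeq2 881, exact test 454, left-out libraries 0 to 30), 2432 at 7 days (DESeq2 4361, left-out libraries 343 to 2704, the lowest without 7-day replicate 3), 0 for 7 against 3 days (DESeq2 1711, exact test 868, left-out libraries 0 to 3) and 1130 for both times (DESeq2 2733, left-out libraries 0 to 1321, with 0 without unbent replicate 1 or 3 or 7-day replicate 3). With library totals, 2119 genes were lower and 1101 higher at 7 days, against 745 and 1687 with TMM factors. With counts thinned to the smallest library, no call of the paralogs changed.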
